A study of Diospyros lotus with 24 samples.

Results

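The subject is the set of contigs that carried more small RNA in developing buds of the mother than of the father in a family of Diospyros lotus, a dioecious persimmon whose males are XY. Members were chosen by their bud small RNA counts. A contig belonged to the set when it had at least 50 small RNA counts over both parents and a CPM (the count divided by the library total and scaled as usual) at least 4 times higher in the mother. The rule chose 553 of 421126 contigs, or 0.889% of the 62222 contigs with at least 50 counts, while 490 (0.788%) met the same rule in the father. These small RNA values chose the members, so they are given as a description with no test.

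The family, named KK, comes from a cross of a female and a male Kunsenshi tree. Small RNA was read in mixed buds of the mother and of the father, 1 library each, and mRNA in mixed buds of both parents, 9 sons and 9 daughters, 1 library per tree. No tree carried a transgene or was treated, and the buds were at the start of primordium differentiation. They were collected on 2 dates, which the labels' wording may assign to male and female buds, with no date per library. Mother and father differ in sex, in tree, in library and possibly in date, and these cannot be told apart with 1 library per parent; sex and date may likewise coincide in the progeny. In bulk buds, fewer cells of a type and less RNA per cell cannot be told apart. The study's title concerns a small RNA encoded on the Y chromosome that determines sex. Contigs higher in the mother are the opposite side of that parental comparison.

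Plant small RNAs are cut from double-stranded or hairpin precursors by Dicer-like enzymes and guide Argonaute proteins to matching RNA or DNA. MicroRNAs and phased small interfering RNAs mostly act on messenger RNA. Small interfering RNAs of the RNA-directed DNA methylation pathway are made mainly from transposons and other repeats and keep them methylated and silent. Which loci make such small RNA can differ between haplotypes, because insertions, deletions and inverted repeats differ between them. The contigs carry no gene names, so the bud tissue could not be checked against marker genes. Of the 553 IDs 0 were found among the 27971 genes annotated on assembly ASM1463336v1. The IDs are numbers of a de novo assembly, so this does not show whether members are annotated genes. The sources used here give neither the contigs' place in the genome nor their sequence nor the lengths of the small RNA reads. No class of small RNA and no gene can therefore be assigned to a member. Reads that match several near-identical contigs may have been split or shared between them, and a gene can lie on several contigs.

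The small RNA libraries held 19315399 counts (mother) and 14168901 counts (father). In 19 mRNA libraries the totals ran from 3527282 to 15314430 counts, the 8 sons used having 5823321 to 15314430 and the 9 daughters 3527282 to 6963244. Son 5 held 387 counts, 0 of them on a member. It is left out, so the progeny are 17 trees, except in an alternative test between sons and daughters that kept it. Each tree is a separate individual, so tests between sons and daughters use the variation from tree to tree.

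Members together took 305059 counts, or 1.579% of the mother's small RNA (95% exact binomial interval 1.574 to 1.585), and 28034 counts, or 0.198% of the father's (0.196 to 0.200). Intervals cover counting error only, since reads were not counted by molecular identifiers. The mother's counts were concentrated on few contigs. The member with the most held 8.90% of them, the top 10 held 39.1% and the top 100 held 79.5%. The median member had 136 counts over both parents, 354 members had at least 100 and 51 had at least 1000.

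The excess in the mother ranged from just above the limit to near absence in the father. The median ratio of CPM, mother over father, was 7.24. It lay from 4 to below 5 in 147 members, from 5 to below 8 in 155, from 8 to below 16 in 121, from 16 to below 32 in 84 and at 32 or more in 40. The remaining 6 members had 0 counts in the father. In 289 of the 553 the whole 95% interval of the ratio lay at 4 or more. For the others counting error alone reaches the limit. Since the intervals may be too narrow, the 289 may be too many. The members just inside it were Contig215747DeNovoAssembly (120 counts in the mother and 22 in the father, a ratio of 4.001), Contig64686DeNovoAssembly (131 and 24, 4.004) and Contig416597DeNovoAssembly (93 and 17, 4.013). Just outside were Contig13314DeNovoAssembly, Contig138934DeNovoAssembly and Contig206773DeNovoAssembly, each with 49 and 9 counts and a ratio of 3.994.

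**Figure D1:**
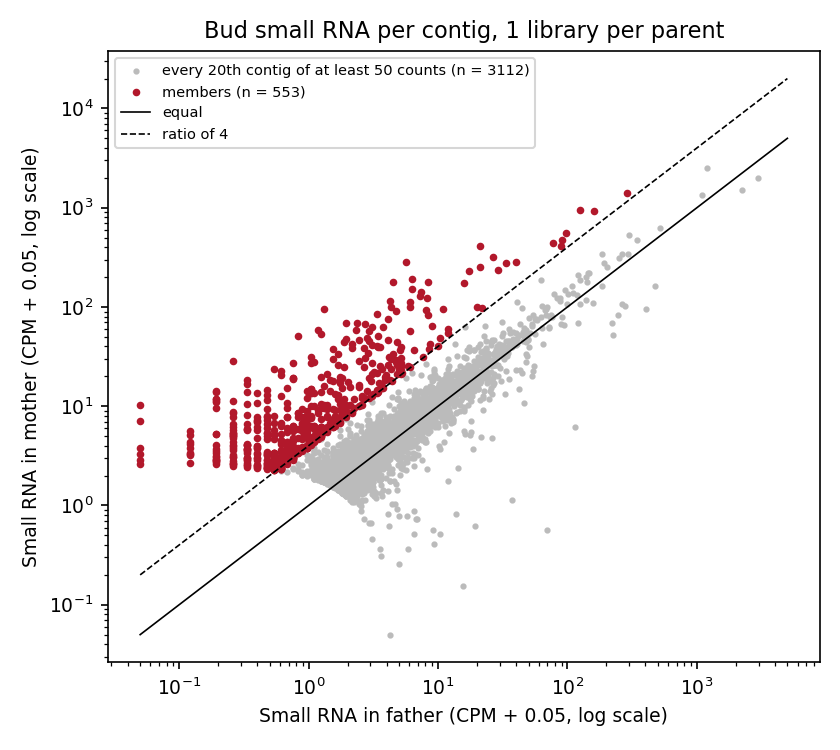
Small RNA of each contig in the father (horizontal) and in the mother (vertical), in CPM + 0.05 on log axes, 1 library per parent. Red points are the 553 members and grey points every 20th contig with at least 50 counts. The dashed line marks a ratio of 4. All members reach that ratio in CPM by the rule, but with 0.05 added to both axes those nearest the limit fall just below the line. Of the members, 6 sit at 0 counts in the father.

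Most of the 8 members with the most small RNA in the mother had little mRNA. Contig395402DeNovoAssembly, 872 bases long, had 27164 small RNA counts in the mother and 4050 in the father, a ratio of 4.92 (95% exact conditional interval 4.76 to 5.09). Contig116950DeNovoAssembly, of 993 bases, had 18461 and 1784, a ratio of 7.59 (7.23 to 7.97). Contig190734DeNovoAssembly, of 1620 bases, had 17762 and 2282, a ratio of 5.71 (5.47 to 5.97). These 3 contigs differed in parental mRNA, with 5 counts in the mother and 4 in the father, 7 and 0, and 29 and 53, respectively. Contig333696DeNovoAssembly (483 bases) had 10734 and 1371 small RNA counts, and Contig348374DeNovoAssembly (298 bases) had 9096 and 1279. Contig320457DeNovoAssembly (632 bases) had 7978 and 1266, and Contig287752DeNovoAssembly (275 bases) had 7971 and 296, the latter a ratio of 19.8 (17.6 to 22.3). These 4 shorter contigs had 0 mRNA counts in the mother and 0 to 2 in the father. In 6 of the 8 the mean progeny mRNA was below 1 CPM. Low levels did not mean absence from every tree. Contig395402DeNovoAssembly and Contig116950DeNovoAssembly each had at least 1 CPM in 5 progeny trees and 0 counts in 5 others.

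Contig203691DeNovoAssembly was rich in both kinds of RNA. It is 3068 bases long and had 8559 small RNA counts in the mother and 1090 in the father, a ratio of 5.76 (5.41 to 6.14). Its mRNA was on in all 17 progeny trees, at 25.9 ± 6.31 CPM (SD, n = 17), lowest 16.7, median 24.9 and highest 39.9. The parents had 158 mRNA counts (mother) and 90 (father), a ratio of 1.73 (1.33 to 2.27), less than the ratio of its small RNA.

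The 6 members with 0 small RNA counts in the father were almost without mRNA. Contig16508DeNovoAssembly, of 279 bases, had 199 small RNA counts in the mother, at least 48.7-fold more than the limit of 3 counts set by the father's 0. Contig142735DeNovoAssembly, of 245 bases, had 137, at least 33.5-fold higher. Contig63991DeNovoAssembly, Contig161003DeNovoAssembly, Contig416242DeNovoAssembly and Contig394457DeNovoAssembly had 73, 63, 54 and 50 counts, at least 17.8-, 15.4-, 13.2- and 12.2-fold higher. Over these 6 contigs the mRNA was 0 to 3 counts in the mother and 0 in the father. Of them Contig161003DeNovoAssembly alone reached 1 CPM in a progeny tree, at 1.03 and 1.10 CPM in 2 sons.

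Members were about as long as the contigs of the whole table, and the shorter they were the denser their small RNA. Their median length was 309 bases (quartiles 246 and 521, longest 3512), against 309 (237 and 554) over all contigs, 403 bases (261 and 1277) over all contigs with at least 50 small RNA counts and 354 in contigs richer in the father's small RNA. There were 248 members (44.8%) below 300 bases, where contigs with at least 50 counts had 35.2%, and 19 (3.44%) of 2000 bases or more, against 16.4%. The median small RNA density in the mother was 18.5 CPM per kilobase (quartiles 9.61 and 50.5) over members and 8.55 over contigs with at least 50 counts. In the father these densities were 2.17 and 7.64 CPM per kilobase. The members' median in the mother fell with length, from 29.1 CPM per kilobase below 300 bases to 2.65 at 2000 bases or more. A minimum of 50 counts asks for more density from a short contig, and contigs with at least 50 counts went from 15.2 to 1.19 over the same classes. The densest members were Contig395402DeNovoAssembly, Contig348374DeNovoAssembly and Contig287752DeNovoAssembly, at 1613, 1580 and 1501 CPM per kilobase in the mother. The contigs richer in the father's small RNA had a like median density in the father, 20.2 CPM per kilobase.

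Bud mRNA of the members was about as low as over all contigs, and lower than over contigs with at least 50 small RNA counts. Of the 553, 547 were in the mRNA table and 6 were not. The median over members of the mean progeny level was 0.216 CPM per kilobase, against 0.293 over contigs with at least 50 small RNA counts and 0.187 over all contigs. The mean progeny level was below 0.1 CPM in 305 members (55.8%), against 44.8% of contigs with at least 50 counts and 57.3% of all contigs. A level of 1 CPM or more in a tree is called on here and 0 counts is called off. Over the progeny 380 members were on in no tree, 40 in 1 or 2 trees, 82 in 3 to 16 trees and 45 in all 17. The share on in at least 3 trees was 23.2%, against 35.6% of contigs with at least 50 small RNA counts and 23.0% of all contigs. The share on in all 17 was 8.23%, against 17.2% and 11.4%. In both parents at once, 216 members (39.5%) had 0 mRNA counts, against 33.3% of contigs with at least 50 small RNA counts and 40.5% of all contigs.

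A minority of members, 45, combined the small RNA difference with mRNA in every tree. Of the 6 members with the highest mean progeny mRNA, Contig398622DeNovoAssembly (1252 bases) had 61.5 ± 12.3 CPM (SD, n = 17; 49.1 CPM per kilobase) with 72 small RNA counts in the mother and 13 in the father. Contig192140DeNovoAssembly (3123 bases) had 54.9 ± 9.10 CPM with 91 and 12 small RNA counts. Contig106867DeNovoAssembly (3194 bases) had 43.8 ± 5.66 CPM with 168 and 30. These 3 had small RNA ratios of 4.06 to 5.56, near the limit of the rule. Contig297504DeNovoAssembly and Contig259814DeNovoAssembly stood further from it. Contig297504DeNovoAssembly (2199 bases) had 43.3 ± 4.59 CPM, 35.2 to 52.2 over the 17 trees, with 1755 and 66 small RNA counts, a ratio of 19.5 (15.3 to 25.3). Its parental mRNA was 192 counts (mother) and 172 (father), a ratio of 1.10 (0.893 to 1.36), whose interval spans 1. Contig259814DeNovoAssembly, of 214 bases, had 49.6 ± 11.5 CPM, 217 and 3 small RNA counts, a ratio of 53.1 (17.9 to 259), and 196 and 247 mRNA counts in the parents, a ratio of 0.784 (0.646 to 0.949). Contig272382DeNovoAssembly, of 216 bases, had 53.2 ± 19.3 CPM and 536 and 66 small RNA counts, a ratio of 5.96, and its mRNA counts of 880 (mother) and 436 (father) gave a ratio of 1.99 (1.78 to 2.24). Over the 45 members on in all 17 trees the median ratio of parental mRNA was 1.04, beside a median small RNA ratio of 6.11.

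Parental mRNA was next compared, 1 library per parent and with no replicate check. At least 10 mRNA counts over both parents were found for 122 of the 547 members (22.3%). The share was 37.0% of contigs with at least 50 small RNA counts and 24.6% of all contigs. In 80 of the 122 members (65.6%) the parents were within a factor of 2, against 78% of all 102755 contigs with at least 10 mRNA counts. In 19 members (15.6%) the mRNA was at least 4 times higher in the mother, where 3.79% of all contigs were, and in 6 members (4.92%) it was at least 4 times higher in the father, where 2.41% were. With at least 30 counts, 7 of 60 members were higher in the mother, or 11.7% against 1.03% of all contigs. Contigs richer in the father's small RNA had 9 of 173 (5.2%) higher in the mother and 17 (9.83%) higher in the father. Whether these shares differ from the background beyond chance was not tested.

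Several members had mRNA in the mother and 0 counts in the father, so that their excess is known only as a lower bound. Contig300414DeNovoAssembly, of 2041 bases, had 103 mRNA counts in the mother, at least 33.9-fold more than the limit of 3 counts in the father. Contig189945DeNovoAssembly (2852 bases) had 33 counts, at least 10.9-fold higher. Contig217342DeNovoAssembly (1917 bases) had 27, at least 8.89-fold higher, and Contig400684DeNovoAssembly (724 bases) had 26, at least 8.56-fold higher. All 4 contigs had small RNA counts in the father, from 7 to 34, where their mRNA was at 0. Over all members 14 had at least 1 CPM of mRNA in the mother and 0 counts in the father, and 4 had the reverse. These are 2.56% and 0.731% of the members in the mRNA table, against 0.449% (1878) and 0.233% (972) of all contigs. Of contigs richer in the father's small RNA, 4 (0.821%) and 11 (2.26%) were of these kinds.

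In a few members mRNA and small RNA pointed to opposite parents. Contig307233DeNovoAssembly, of 2902 bases, had 181 small RNA counts in the mother and 12 in the father, a ratio of 11.1 (6.18 to 21.8). Its mRNA was 1 count in the mother and 115 in the father, 116-fold higher in the father (95% interval 20.5 to 4638). Contig300533DeNovoAssembly, of 2821 bases, had 232 and 13 small RNA counts, a ratio of 13.1 (7.51 to 25.0), and 4 mRNA counts in the mother against 39 in the father, 9.87-fold higher in the father (3.56 to 38.0). Both contigs were thus rich in small RNA in the parent that was poor in their mRNA. Contig352352DeNovoAssembly, of 275 bases, had 97 and 17 small RNA counts, and 0 mRNA counts in the mother against 27 in the father. Contig360198DeNovoAssembly, of 335 bases, had 43 and 7 small RNA counts, and 3 mRNA counts in the mother against 17 in the father.

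**Figure D2:**
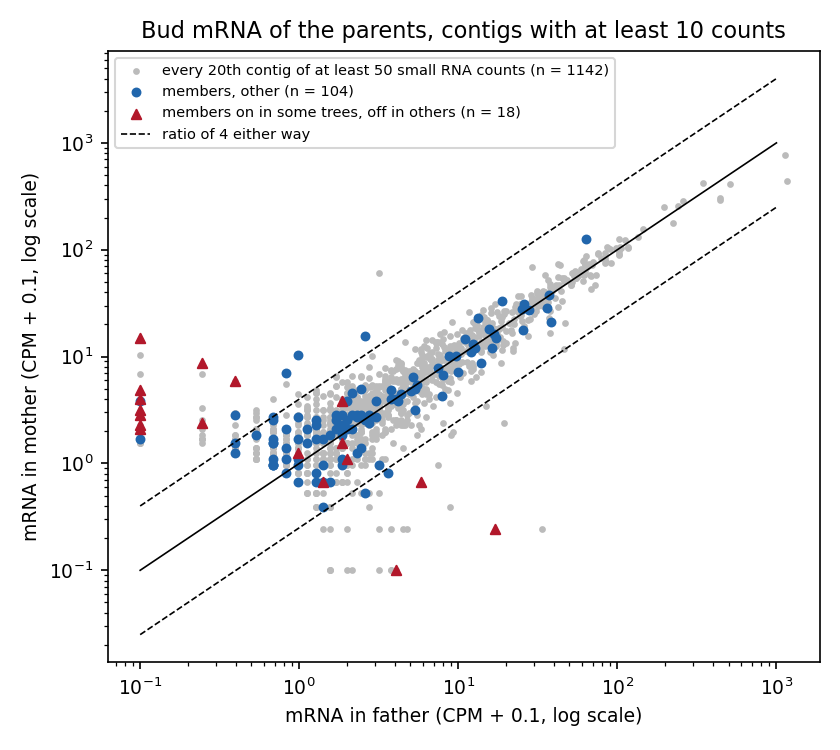
mRNA of each contig in the father (horizontal) and the mother (vertical), in CPM + 0.1 on log axes, for contigs with at least 10 mRNA counts over both parents. Triangles are the 18 such members that were on in some progeny trees and off in others, and circles the other 104 members. Grey points are every 20th contig with at least 50 small RNA counts. Dashed lines mark a ratio of 4 either way. By CPM, 19 members were at least 4 times higher in the mother and 6 in the father. With 0.1 added to both axes, those near the limit can plot inside the lines.

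The progeny show whether the mRNA of a member was present in some trees and absent from others. A contig was counted as on/off when it was on in at least 3 of the 17 trees and off in at least 3. The value of 1 CPM lies above the 3 counts that 0 allows in each library, 0.196 to 0.851 CPM. Of 127 members on in at least 3 trees, 32 (25.2%) were on/off, where 6.62% of all contigs on in at least 3 trees were, 7.61% of those with at least 50 small RNA counts, and 11.2% (19 of 170) of those richer in the father's small RNA. With at least 5 trees on and 5 off there were 12 of 108 members (11.1%) on in at least 5 trees, against 1.21% of all contigs.

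A low level alone can give zeros in some trees, and members had low levels, so the shares are best read by level. Of contigs on in at least 3 trees at a mean progeny level of 0.1 to 0.5 CPM, 5 of 5 members were on/off, against 88.8% of all contigs. From 0.5 to 1 CPM it was 16 of 33 (48.5%), against 20.3% of all contigs and 25.6% of those with at least 50 small RNA counts. From 1 to 2 CPM it was 4 of 24 (16.7% against 3.16% and 3.96%), and from 2 to 5 CPM 4 of 27 (14.8% against 1.4% and 2.37%). At 5 to 10 CPM it was 1 of 13 (7.69% against 0.699% and 1.69%), and at 10 CPM or more 2 of 25 (8% against 0.197% and 0.453%). At 1 CPM or more together there were 11 of 89 members (12.4%), 1.42% of all contigs and 2.1% of those with at least 50 small RNA counts. Contigs richer in the father's small RNA had 11 of 146 (7.53%), with a higher share than members from 5 to 10 CPM (14.3%). Whether these shares differ beyond chance was not tested.

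**Figure D3:**
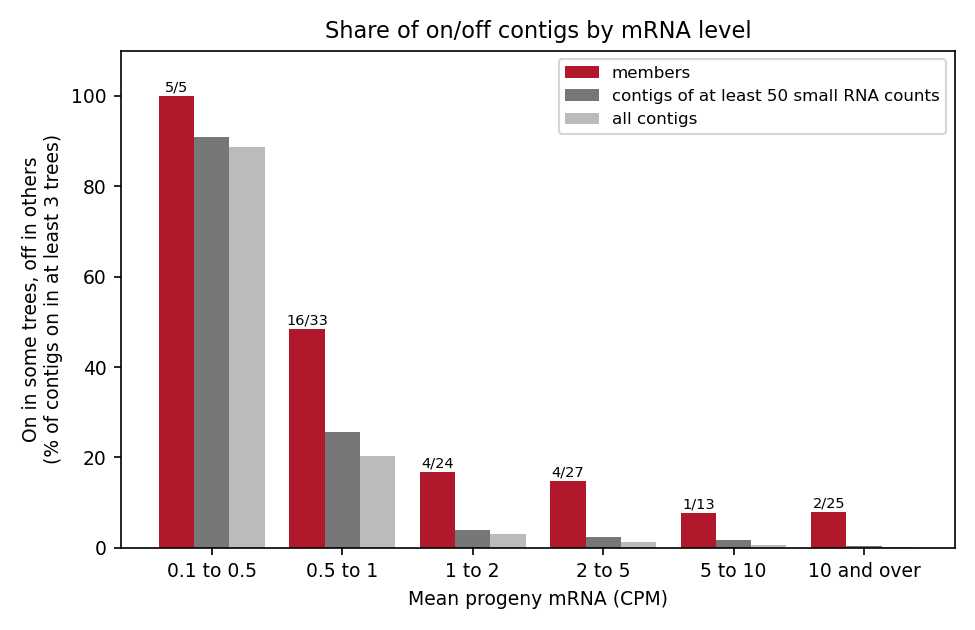
Share of on/off contigs, in percent of contigs on in at least 3 of 17 progeny trees, by mean progeny mRNA level in CPM, for members, contigs with at least 50 small RNA counts and all contigs. Numbers over the bars give on/off members of members on; in each class the member bar is the tallest, and shares fall as the level rises, apart from the members' last step from 7.69% to 8%.

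By parental mRNA the 32 on/off members were of several kinds. In 11 the mother had at least 1 CPM and the father 0 counts, in 1 the reverse, in 17 both parents had counts, in 1 both had 0, and in 2 the mother had 0 and the father under 1 CPM. Among all on/off contigs 6.19% were of the first kind, against 34.4% of the on/off members. The reverse kind made up 47.4% of the on/off contigs richer in the father's small RNA, and 9 of 11 such contigs (81.8%) were on/off. Of the 14 members with mRNA in the mother and none counted in the father, 11 were on/off. Of all 1878 such contigs 21% were, or 57.8% of those on in at least 3 trees, against 11 of 13 members. With at least 50 small RNA counts these shares were 34.5% and 64.1%. The 14 were on in 2 to 11 trees, with a median of 7.

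**Figure D4:**
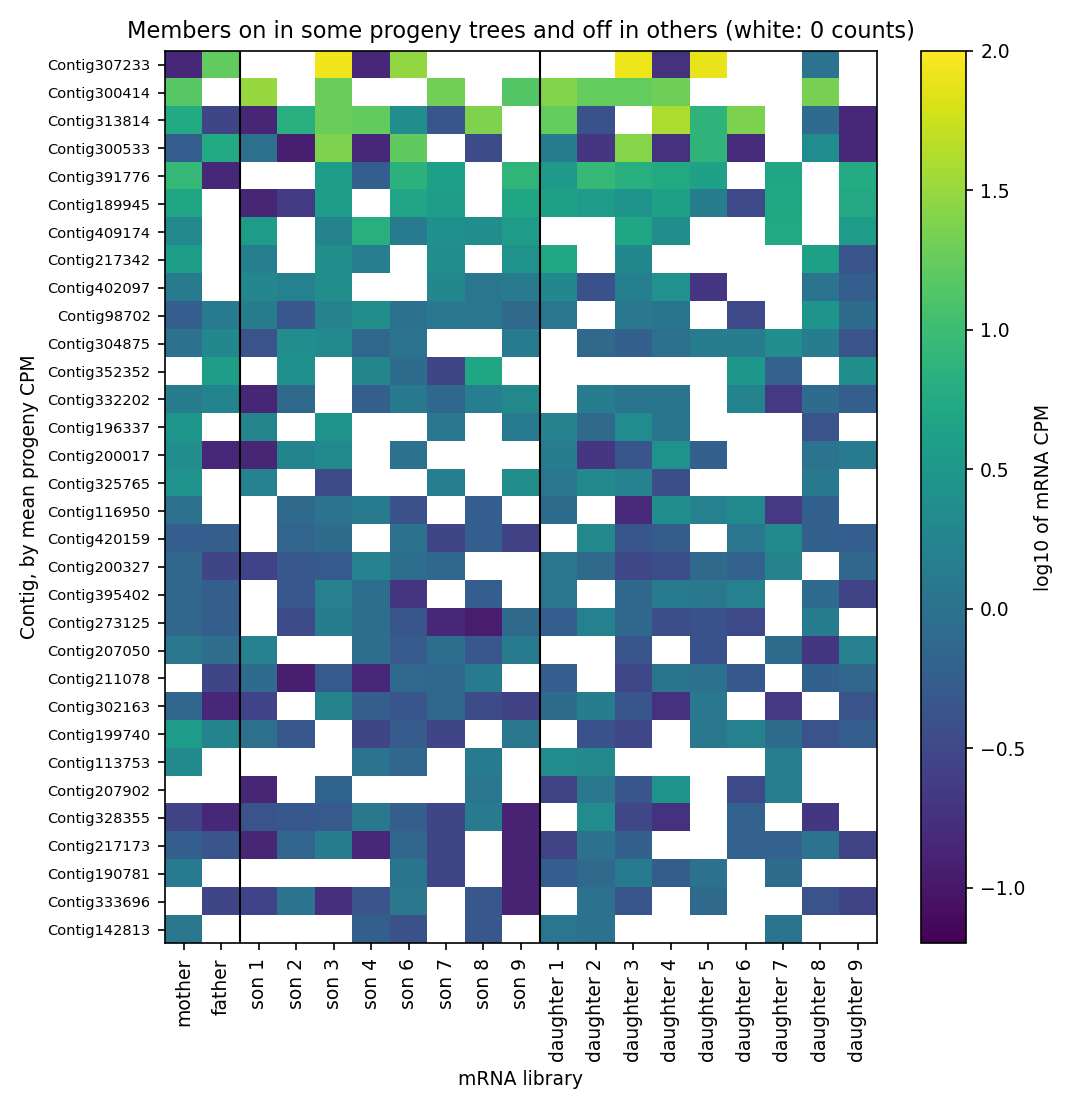
mRNA level of the 32 on/off members (rows, named without the ending of the contig names) in the mother, the father, 8 sons and 9 daughters (columns), as log10 of CPM with white for 0 counts. The upper rows change between levels of several CPM and 0 from tree to tree, while lower rows sit near 1 CPM, where a count of 0 is close to the lowest level that could be seen.

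Contig300414DeNovoAssembly had no tree between on and off. Its mRNA was 14.2 to 32.1 CPM in 9 trees and 0 counts in the other 8. The trees on were 4 of 8 sons and 5 of 9 daughters. The mother had 14.9 CPM and the father 0. Its small RNA was 372 counts in the mother and 25 in the father, a ratio of 10.9 (7.28 to 17.1).

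A pair of other members followed the same trees at lower levels. Contig196337DeNovoAssembly, of 1290 bases, had 908 small RNA counts in the mother and 27 in the father, a ratio of 24.7 (16.8 to 37.6), with 21 mRNA counts in the mother and 0 in the father. It was on in 7 trees at 1.11 to 2.75 CPM, had 0.413 and 0.810 CPM in a further 2, and was off in the same 8 trees as Contig300414DeNovoAssembly. Contig325765DeNovoAssembly, of 753 bases, had 77 and 3 small RNA counts, a ratio of 18.8 (6.21 to 93.3), with 19 mRNA counts in the mother and 0 in the father. It was on in 7 trees at 1.13 to 2.40 CPM, had 0.343 and 0.372 CPM in 2, and was off in those 8. All 3 contigs therefore had counts in the same 9 trees and none in the same 8.

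Shared patterns were counted over pairs of contigs with at least 5 trees on and 5 off, comparing trees in which both were on or off and asking for at least 14 such trees with none opposed. Of 29 member pairs with that many trees called, 2 shared a pattern (6.9%), both with Contig300414DeNovoAssembly. Over all contigs 1.69% of 121744 such pairs did. Pairs reuse the same contigs and are not independent, and the difference between these shares was not tested. The pair of Contig196337DeNovoAssembly and Contig325765DeNovoAssembly had 13 trees called and 0 opposed, too few for the count. Beyond the members, the pattern of Contig300414DeNovoAssembly was shared by 21 of 599 contigs compared, 2 of them members. All 21 had mRNA counts in the mother, and 18 of them had 0 in the father. Their lengths were 208 to 3232 bases. Small RNA was not higher in the mother in all of them. In 6 of the 21 the father had small RNA counts and the CPM was at least 4 times higher in the mother, without a minimum of counts. A further 4 had 0 counts in the father and 1 or 2 in the mother, too few for a ratio. Contig301000DeNovoAssembly (2409 bases), with 152 mRNA counts in the mother and 0 in the father, had 41 small RNA counts in the mother and 36 in the father. Whether these contigs lie near each other, or are pieces of 1 transcript, cannot be read from these files.

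**Figure D5:**
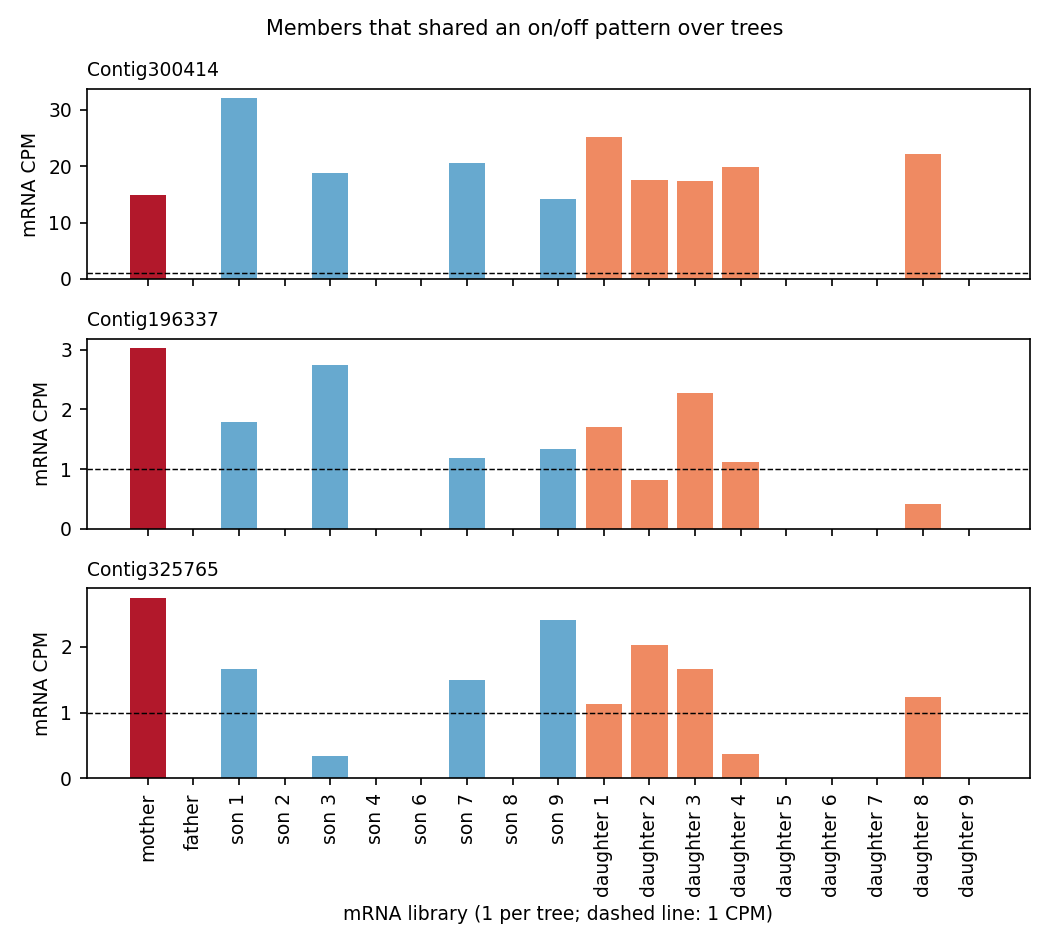
mRNA in CPM of the 3 members of the shared pattern, in the mother, the father, 8 sons and 9 daughters, 1 bar per library, with a dashed line at 1 CPM. Each contig has counts in the mother and the same 9 progeny trees and 0 counts in the father and the other 8 trees.

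Other on/off members with mRNA mainly from the mother followed different trees. Contig391776DeNovoAssembly, of 2579 bases, had 60 mRNA counts in the mother and 1 in the father, a ratio of 59.3 (10.2 to 2379), and 47 and 6 small RNA counts. It was on in 11 trees at 3.40 to 8.91 CPM, off in 5, and had 0.595 CPM in 1. Its pattern was shared by 13 of 477 contigs compared, 0 of them members, and 11 of the 13 had 0 mRNA counts in the father. Contig189945DeNovoAssembly was on in 11 trees at 1.41 to 5.46 CPM, the same number, and off in 3. Contig217342DeNovoAssembly, with 314 and 34 small RNA counts, was on in 8 trees at 1.49 to 5.10 CPM, off in 8 and at 0.431 CPM in 1, and 7 of 481 contigs shared its pattern, all 7 with 0 in the father. Against Contig300414DeNovoAssembly it was opposed in 3 of 16 trees called. Contig409174DeNovoAssembly, of 475 bases, was on in 11 trees at 1.37 to 6.40 CPM and off in 6, with none between. It was on in 7 of 8 sons and 4 of 9 daughters. Its log2 fold change, son over daughter, was 0.44 (SE 0.82, edgeR adjusted p = 0.959). Contig402097DeNovoAssembly, of 465 bases, was on in 10 trees at 1.03 to 2.60 CPM and off in 4. Contig400684DeNovoAssembly, though at 0 mRNA counts in the father, was off in no tree and ranged from 0.131 to 7.72 CPM.

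The 6 members with mRNA at least 4 times higher in the father were on in 0 to 17 trees, with a median of 5. Contig307233DeNovoAssembly had 30.6 to 86.5 CPM in 4 trees (son 3, son 6, daughter 3 and daughter 5) and at most 1.03 CPM in the other 13, of which 10 were at 0. Contig300533DeNovoAssembly had 7.66 to 25.9 CPM in the same 4 trees and at most 2.27 CPM in the other 13. This match of high trees was noticed after the values were seen. It did not enter the count of shared patterns, since Contig300533DeNovoAssembly was off in 3 trees, under the minimum of 5. Contig352352DeNovoAssembly was on in 5 trees at 1.79 to 4.73 CPM and off in 9. Contig313814DeNovoAssembly, of 432 bases, was higher in the mother, with 40 mRNA counts against 2 and 182 small RNA counts against 6. Its progeny levels spread from 0 in 3 trees to 40.9 CPM, with a median of 2.35. Contig98702DeNovoAssembly, of 1149 bases, had 4 mRNA counts in the mother and 9 in the father and was on in 9 trees at 1.11 to 2.89 CPM, so its 3 zeros lie close to the limit of detection.

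The last question was whether members differed between sons and daughters, the replicated groups. Of 72 members abundant enough for the test, 0 passed an adjusted p of 0.05 in edgeR's quasi-likelihood test, where 0.0477% (30) of all 62831 contigs did. At an unadjusted p under 0.05 there were 4 of the 72 (5.56%), against 7.08% of all contigs, and DESeq2 called 0 of 192 members, against 0.0622% (92 of 147989) of all contigs. The median log2 fold change, son over daughter, was -0.01 over the 72 members and 0.0046 over all contigs. Only 5 of the 32 on/off members were among the 72. Contig300414DeNovoAssembly was 1 of them, at a log2 fold change of -0.09 (SE 1.18; edgeR adjusted p = 0.996). The members of lowest p were Contig203691DeNovoAssembly and Contig196143DeNovoAssembly. The first had 22.4 ± 4.48 CPM in sons (SD, n = 8) and 29.0 ± 6.26 in daughters (SD, n = 9), or -0.38 on the log2 scale (SE 0.14; edgeR adjusted p = 0.562, and 0.320 to 0.913 over the alternatives). The second, of 1689 bases, had 1.32 ± 0.657 and 2.45 ± 1.02 CPM, or -0.90 on the log2 scale (SE 0.33; edgeR adjusted p = 0.562, and 0.269 to 0.994 over the alternatives). For both, the ranges of sons and daughters overlapped.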

How the data were processed

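Bud mRNA (20 libraries) and bud small RNA (2) were analysed as the authors deposited them: raw counts for each contig of a de novo assembly, with no normalization. Contig lengths in bases stood beside the small RNA counts. BWA, DESeq 1.14 and R 3.0.1 are listed in the submitters' processing notes. How reads with multiple matches were counted, and on which strand, is not given in the sources used here. The 2 flower libraries were not analysed here. CPM used library totals. Ratios of single libraries have exact conditional 95% intervals, and a count of 0 was taken to allow 3 counts. Sons and daughters were compared with edgeR 4.0.16 (R 4.3.3) on 17 progeny: a robust quasi-likelihood fit after filterByExpr and TMM scaling, Benjamini-Hochberg adjusted p under 0.05 over all contigs. DESeq2 1.42.0 was an alternative. The edgeR script and the on/off rule were tested on simulated data. Members, lists and rules were chosen with earlier results of these data known. Contigs named were those highest by small RNA counts, small RNA ratio, progeny mRNA, on/off level, parental mRNA ratio or lowest p, those sharing a pattern, and those at the limit. Partner contigs outside the set were chosen after their values were seen.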

Additional observations from a re-analysis of the deposited data

Results flagged for a closer look

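The mRNA levels of the named members were searched for a single tree far from the others of its sex, in 72 groups of 8 sons or 9 daughters. Chance gives about 1 in 20 groups where levels have no excess of zeros, and 10 values were found. Several of these groups hold mostly zeros or on/off levels, so the 10 cannot be set against that rate. Of members on in every tree, Contig398622DeNovoAssembly had 99.8 CPM in daughter 4, against 44.7 to 67.4 in the other daughters, and Contig192140DeNovoAssembly had 78.2 CPM in daughter 6, against 39.4 to 57.6. Of on/off members, Contig307233DeNovoAssembly had 86.5 CPM in son 3, against 0 to 30.6 in the other sons. Contig300533DeNovoAssembly had 25.9 CPM in daughter 3, against 0 to 7.66, and Contig98702DeNovoAssembly had 2.89 CPM in daughter 8, against 0 to 1.21.

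The other values rest on 1 to 8 counts. Contig320457DeNovoAssembly had 0.522 CPM in son 6, the only son with a count, and 1.42 CPM in daughter 1, against 0 to 0.403. Contig16508DeNovoAssembly had 0.810 CPM in daughter 2 (others 0 to 0.151), Contig348374DeNovoAssembly 0.413 CPM in daughter 8 (others 0 to 0.161) and Contig142735DeNovoAssembly 0.284 CPM in daughter 1 (others 0).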

How the results depend on the processing

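The 553 members became 354 at 100 counts, 213 at 200 counts, 1008 when the ratio was 3 and 251 when it was 8. Scaling by the median log2 ratio, which was 0.17 higher in the mother, left 465, and totals without the 100 highest contigs left 495, all of them members. The 32 on/off members became 71 with on at 0.5 CPM (40.1% of members on, against 24.5% of all contigs) and 10 at 2 CPM (12.5% against 1.67%). They became 51 with 2 trees on and 2 off (37.2% against 16.9%) and 12 with 5 and 5. Thinning counts to the shallowest library gave 53 (38.4% against 15.3%). Members with 200 small RNA counts held 13 (28.3%), beside 6.62% of all contigs, to which no such minimum was applied. With off at 1 count or fewer there were 40 (31.5% against 13.2%). The 19 members with mRNA 4 times higher in the mother became 7 at 30 counts (11.7% against 1.03%), 30 at a ratio of 2 (24.6% against 13.5%) and 18 with TMM factors (14.8% against 3.67%). The 6 higher in the father became 2 (3.33% against 0.692%), 12 (9.84% against 8.46%) and 6 (4.92% against 2.49%). The count of 0 members between sons and daughters held in all 6 alternatives. No paired analysis was possible because the numbers of the trees pair no son with a daughter. With this depth, on/off calls were limited to contigs at 1 CPM or more in at least 3 trees. The mean progeny level of the 32 on/off members was 0.275 to 16.5 CPM, with a median of 0.718.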
